A study of Mus musculus with 16 samples.

Results

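The 10 genes described here encode proteins that package, mask or reactivate the mRNAs an oocyte stores for later use: Ybx2, Cpeb1, Zar1, Zar1l, Lsm14b, Ddx6, Patl2, Eif4e1b, Pabpc1l and Dazl. They were taken by name from a list of such genes, and all 10 were found among the 25965 rows of the deposited RNA-seq table. The study sorted oocytes of wild-type C57BL/6 mice (C57BL/6Babr in the methods) by diameter and asked how the transcriptome and DNA methylation change as the oocyte grows. RNA-seq was done on duplicate libraries, A and B, for each of 4 size classes (10–30 µm, 40–45 µm, 50–55 µm, then 60–65 µm), and there is 1 column for germinal vesicle (GV) oocytes, which are fully grown and arrested in meiosis. Methylation was measured by reduced representation bisulphite sequencing (RRBS, which samples CpG-rich fragments) in duplicate in the 3 larger classes and by post-bisulphite adaptor tagging (PBAT, which samples the whole genome) in 1 library at 60–65 µm. Every library was a pool of oocytes, and larger oocytes came from older pups, so diameter and age of the mouse cannot be told apart.

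A growing mouse oocyte transcribes intensively and holds back part of its mRNA from translation, because transcription stops at the end of growth and the first steps of meiosis and embryonic development run on stored message. Stored mRNAs typically carry short poly(A) tails and sit in ribonucleoprotein particles with Y-box proteins, the helicase DDX6 and its partners. At meiotic maturation, proteins that recognise sequences near the 3′ end, such as CPEB1 and DAZL, direct the lengthening of tails and the start of translation.

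All values are RPKM, read numbers divided by the length of the exons and by library size, so levels are per length. The length behind the values was 1259 bases for Zar1, 6065 for Ddx6 and 2942 for Dazl, where the union of GENCODE M21 exons has 3465, 8035 and 3820, and it equalled that union for the other 7 members. Comparisons of level between genes therefore depend on the length used, while changes of 1 gene do not. RPKM is a share of the library, and fewer cells of a type and less RNA per cell cannot be told apart in such pools. The paper describes a substantial growth of cytoplasm and mRNA content in these oocytes. A fall or a level value here is therefore one of share and not of mRNA per oocyte. The libraries held 99369452 to 198298123 reads as recovered from the RPKM steps, and each member was covered by 1723 reads or more in every library. Replicate libraries correlated at 0.986 to 0.995 over 10518 genes. The labels do not say that A and B came from separate animals, and p-values therefore measure the spread between these libraries, which may be technical. All 10 oocyte markers examined, such as Zp2, Zp3 and Gdf9, were present, with a summed level of 2670 to 3830 RPKM in every library. The 12 granulosa cell markers summed to 2.16 to 2.57 RPKM at 10–30 µm and to 7.27 to 7.90 at 60–65 µm, led by Nr5a2 (up to 5.56 RPKM in 1 library), Cyp19a1 (up to 2.53) and Kitl (up to 0.907), whereas Amh, Fshr and Foxl2 stayed at or below 0.286. The 10 markers of theca and stroma went from 2.91 to 4.03 RPKM at 10–30 µm to 1.04 to 1.13 at 60–65 µm. The 5 endothelial markers went from 1.06 to 1.17 RPKM to 5.34 to 5.93, nearly all from Pecam1 and Tek, with Cdh5 at or below 0.0101, and the 7 blood markers in the table summed to 0.216 at most. No somatic marker in the table was at 0 in all libraries, and the part of these sums in the results below was not tested.

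The promoters of members that rose with growth and of members that did not are shown first, with their CpGs marked, because some of the methylation values below are given for these windows. RefSeq promoter windows on GRCm38.p6, from 250 bases before the start of transcription to 50 bases after it, were matched for 8 of the 10 members. The 4 members among them that rose between 10–30 and 60–65 µm held 17 (Zar1), 3 (Zar1l), 10 (Patl2) and 7 (Pabpc1l) CpGs in their 300 bases. The 4 that were not called held 40 (Ybx2), 33 (Cpeb1), 40 (Lsm14b) and 28 (Dazl). Among all 27025 promoters, the share with fewer CpGs was 23.8% for Zar1l, 47.7% for Pabpc1l, 56.1% for Patl2 and 68.1% for Zar1, and it was higher for Dazl, Cpeb1 (91.7%), Ybx2 and Lsm14b (both 96.2%). The members were few, and no test of CpG content against the change with growth was made. The 6 sequences below are written 5′ to 3′ in the direction of the gene, and capitals mark CpGs. They lie at chr5:72581035-72581334 (Zar1, minus strand), chr5:150518110-150518409 (Zar1l, minus strand), chr2:122186140-122186439 (Patl2, minus strand), chr2:164024974-164025273 (Pabpc1l, plus strand), chr2:180024737-180025036 (Lsm14b, plus strand) and chr17:50293571-50293870 (Dazl, minus strand).
Zar1: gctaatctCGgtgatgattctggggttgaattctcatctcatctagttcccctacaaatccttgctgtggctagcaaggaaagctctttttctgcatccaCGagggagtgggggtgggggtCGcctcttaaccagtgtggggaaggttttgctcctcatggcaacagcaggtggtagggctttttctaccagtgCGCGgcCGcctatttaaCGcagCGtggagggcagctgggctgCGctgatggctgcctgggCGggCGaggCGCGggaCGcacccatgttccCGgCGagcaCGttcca
Zar1l: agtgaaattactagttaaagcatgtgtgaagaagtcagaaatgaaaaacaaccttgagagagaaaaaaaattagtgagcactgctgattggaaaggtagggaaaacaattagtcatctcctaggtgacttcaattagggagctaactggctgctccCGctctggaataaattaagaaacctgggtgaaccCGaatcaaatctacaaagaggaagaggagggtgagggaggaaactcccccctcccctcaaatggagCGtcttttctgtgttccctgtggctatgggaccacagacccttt
Patl2: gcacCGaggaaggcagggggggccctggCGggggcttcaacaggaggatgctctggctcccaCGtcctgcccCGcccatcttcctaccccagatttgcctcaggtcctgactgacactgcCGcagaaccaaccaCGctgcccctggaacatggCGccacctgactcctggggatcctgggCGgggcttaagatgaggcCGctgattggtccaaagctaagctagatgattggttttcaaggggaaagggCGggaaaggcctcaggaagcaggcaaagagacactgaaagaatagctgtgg
Pabpc1l: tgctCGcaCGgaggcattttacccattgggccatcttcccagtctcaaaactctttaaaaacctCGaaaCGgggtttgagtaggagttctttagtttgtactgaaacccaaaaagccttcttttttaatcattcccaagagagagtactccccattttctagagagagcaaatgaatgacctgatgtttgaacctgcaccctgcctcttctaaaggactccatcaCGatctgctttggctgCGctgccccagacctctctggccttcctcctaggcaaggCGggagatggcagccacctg
Lsm14b: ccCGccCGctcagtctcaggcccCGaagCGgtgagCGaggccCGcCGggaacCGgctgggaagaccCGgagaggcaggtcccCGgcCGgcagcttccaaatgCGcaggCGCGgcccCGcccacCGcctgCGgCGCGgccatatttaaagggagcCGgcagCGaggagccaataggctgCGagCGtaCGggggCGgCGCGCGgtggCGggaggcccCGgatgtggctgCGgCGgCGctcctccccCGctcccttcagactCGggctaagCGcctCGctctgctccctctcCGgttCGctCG
Dazl: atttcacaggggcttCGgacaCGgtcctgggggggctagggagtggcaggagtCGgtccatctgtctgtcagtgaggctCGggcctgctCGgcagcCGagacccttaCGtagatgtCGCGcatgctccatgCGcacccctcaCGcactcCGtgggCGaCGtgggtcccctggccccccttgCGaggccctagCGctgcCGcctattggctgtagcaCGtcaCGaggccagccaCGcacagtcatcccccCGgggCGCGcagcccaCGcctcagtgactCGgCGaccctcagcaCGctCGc

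Of the motifs searched on both strands, the E-box CANNTG, the site bound by the oocyte factor FIGLA, was found in all 8 windows and in 72.1% of all promoters. CCAAT, the core of the Y-box and of NF-Y sites, was found in 6 of the 8 windows, against 37.9% of all promoters. It was absent from the windows of Zar1 and Cpeb1. TAATTG, a homeobox site of the kind NOBOX binds, occurred in Zar1l alone of the 8 windows, at 145 and at 120 bases before the start, and in 8.15% of all promoters. TAATTA, another such site, was in none of the 8 windows and in 5.31% of all promoters. These matches describe the letters of the windows and say nothing of binding.

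Over the whole of growth, 5 of the 10 members rose between 10–30 and 60–65 µm, 1 fell and 4 passed no threshold. Zar1l rose most (3.14-fold), followed by Pabpc1l (2.45-fold), Eif4e1b (1.72-fold), Zar1 (1.67-fold) and Patl2 (1.58-fold). Ddx6 fell to 0.705 of its level at 10–30 µm, as a share of the library and not as an amount per oocyte. The test was limma on log2 values (scaled RPKM with 0.1 added), and p-values were adjusted over 10518 genes by Benjamini-Hochberg with a threshold of 0.05. By the same rule 32.3% of all genes were higher and 30.8% lower in the larger class. The members' median log2 change was 0.41, beside 0.02 for all genes tested.

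The increases showed in the first step. Between 10–30 and 40–45 µm the same 5 members, Zar1, Zar1l, Patl2, Eif4e1b and Pabpc1l, passed the threshold and none fell, while 15.5% of all genes were called higher and 8.12% lower. Between 40–45 and 50–55 µm no member passed in either direction, against 5.42% of all genes higher and 4.05% lower. With the letters A and B as a block in the fit, Zar1l was called higher in this step (limma, adjusted p = 0.0368). Between 50–55 and 60–65 µm limma called 0% of genes higher and 0% lower, although 676 genes were higher and 784 lower at an unadjusted p under 0.05. The edgeR test on recovered reads likewise called 0 genes there. The members' median log2 change was 0.43, -0.02 and 0.02 in these 3 steps.

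**Figure D1:**
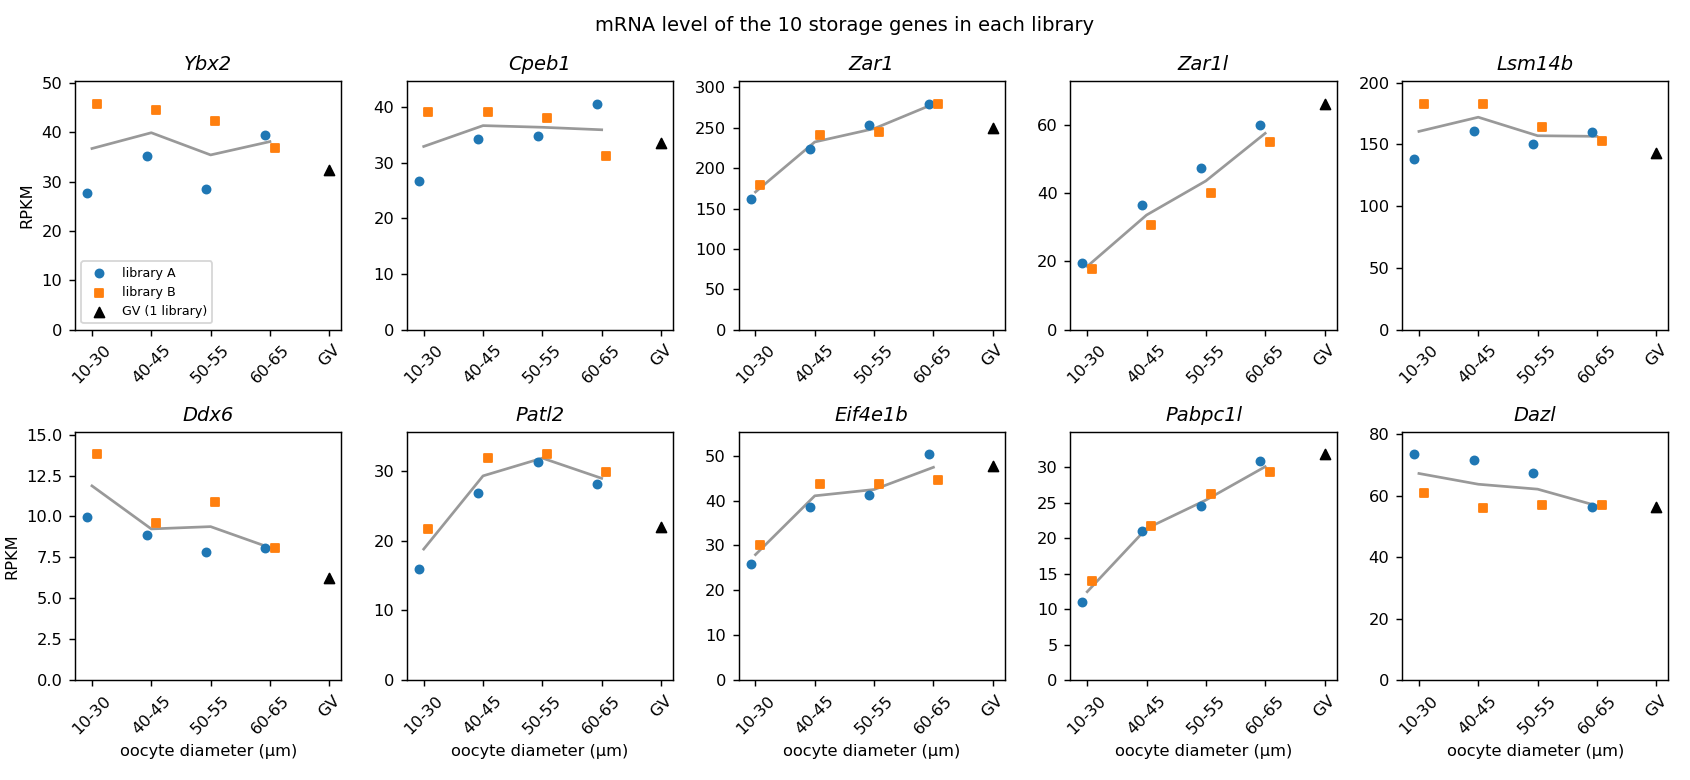
RPKM (y axis, from 0) of each of the 10 genes against oocyte diameter in µm and in GV oocytes. Circles are library A, squares library B, triangles the single GV column, and the grey line joins the means of 2 libraries. Zar1l climbs from 17.6–19.4 to 55.1–59.9, whereas the points of Ybx2 at 60–65 µm lie within the range of those at 10–30 µm.

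Of the 4 packaging and repression factors of stored mRNA, Patl2 rose, Ddx6 fell and Lsm14b and Ybx2 were not called. Lsm14b (chr2:180024987-180035465, plus strand), which encodes an LSM-domain partner of DDX6 in mRNA particles, was the second most abundant member by deposited RPKM. It stood at 138 and 183 RPKM in the A and B libraries at 10–30 µm, at 161 and 183 at 40–45 µm, at 150 and 164 at 50–55 µm and at 160 and 153 at 60–65 µm. The libraries of the smallest and largest class overlapped, and the ratio of 60–65 to 10–30 µm was 0.999, with a 95% interval of 0.808 to 1.23 (limma, adjusted p = 0.99).

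Ybx2 (chr11:69935796-69941605, plus strand) encodes the germ-cell Y-box protein MSY2, which coats mRNA with little sequence preference. Its level was 27.6 and 45.8 RPKM at 10–30 µm, 35.2 and 44.6 at 40–45 µm, 28.5 and 42.3 at 50–55 µm and 39.4 and 36.8 at 60–65 µm. At 10–30, 40–45 and 50–55 µm the gap between libraries A and B was wider than any difference between class means, which was not so at 60–65 µm. The interval of its ratio across growth, 0.734 to 1.61, leaves room for a change of moderate size in either direction.

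Ddx6 (chr9:44604892-44640731, plus strand), the DEAD-box helicase of processing bodies and of translational repression, was the least abundant member by class mean in every size class. At 10–30 µm its libraries overlapped those of Pabpc1l. Ddx6 stood at 9.94 and 13.8 RPKM at 10–30 µm, 8.88 and 9.60 at 40–45 µm, 7.86 and 10.9 at 50–55 µm, and 8.10 and 8.09 at 60–65 µm. Both libraries of the largest class lay below both of the smallest, and the log2 change was -0.50 ± 0.18 (SE; limma, adjusted p = 0.0345; edgeR on recovered reads, adjusted p = 0.0223). The call was lost without library B at 10–30 µm (-0.30, limma, adjusted p = 0.176) and without either library at 60–65 µm (adjusted p = 0.132 without A and 0.103 without B). It was also lost when genes of low level were kept in the test (adjusted p = 0.0613).

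Patl2 (chr2:122120108-122186189, minus strand) encodes an oocyte relative of the decapping and repression factor PATL1. It was at 15.9 and 21.7 RPKM at 10–30 µm, at 26.8 and 31.8 at 40–45 µm, at 31.3 and 32.4 at 50–55 µm and at 28.1 and 29.8 at 60–65 µm. All 6 libraries of the 3 larger classes were above both of the smallest class. The log2 change was 0.76 ± 0.14 (SE) to 40–45 µm (limma, adjusted p = 0.00729) and 0.66 ± 0.14 to 60–65 µm (adjusted p = 0.00377). The span of Patl2 holds B2m and Trim69 on the opposite strand, but none of its exon bases is shared with another gene in GENCODE M21, and the same was true of every other member.

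Both zygote arrest genes rose. ZAR1 and ZAR1L are zinc-finger proteins that bind maternal mRNA, and loss of ZAR1 arrests the embryo soon after fertilisation. Zar1 (chr5:72577114-72581084, minus strand) was the most abundant member by class mean of the deposited RPKM throughout. It stood at 162 and 179 RPKM at 10–30 µm, 224 and 241 at 40–45 µm, 253 and 245 at 50–55 µm and 279 and 280 at 60–65 µm. Its log2 change was 0.57 ± 0.10 (SE) in the first step (limma, adjusted p = 0.0053) and 0.74 ± 0.10 across growth (adjusted p = 0.00027). With only these 2 classes in the fit the call of the first step was lost (adjusted p = 0.0533).

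Zar1l (chr5:150507055-150518164, minus strand) was at 19.4 and 17.6 RPKM at 10–30 µm, at 36.4 and 30.7 at 40–45 µm, at 47.2 and 39.9 at 50–55 µm and at 59.9 and 55.1 at 60–65 µm. Its 4 classes did not overlap, and each was above the one before. The log2 change was 0.97 ± 0.13 (SE) in the first step (limma, adjusted p = 0.00218), 0.33 ± 0.13 in the second (adjusted p = 0.143) and 0.36 ± 0.13 in the third (adjusted p = 0.291), and 1.65 ± 0.13 in all (adjusted p = 2.2e-05).

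**Figure D2:**
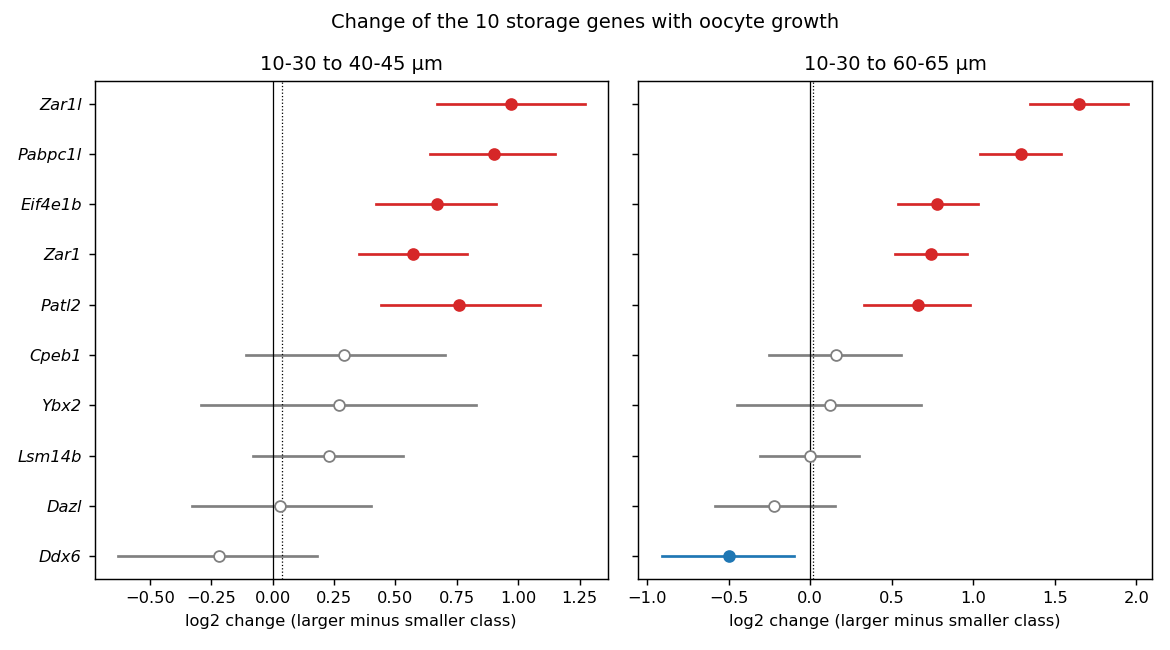
Log2 change (x axis, larger minus smaller size class) of the 10 genes from 10–30 to 40–45 µm (left) and from 10–30 to 60–65 µm (right), with 95% intervals from limma. Filled points passed an adjusted p of 0.05 (red higher, blue lower), open points did not, and the dotted line is the median of all genes tested. Zar1l is at 0.97 and 1.65, and Ddx6 is the single blue point, at -0.50.

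The sequence-specific regulators Cpeb1 and Dazl passed no threshold. CPEB1 binds the U-rich cytoplasmic polyadenylation element, holding its targets silent before maturation and promoting their polyadenylation afterwards. Cpeb1 (chr7:81347026-81455465, minus strand) stood at 26.7 and 39.1 RPKM at 10–30 µm, 34.2 and 39.1 at 40–45 µm, 34.7 and 38.0 at 50–55 µm, and 40.6 and 31.2 at 60–65 µm. The classes overlapped, and the ratio across growth was 1.12 (95% interval 0.843 to 1.48; limma, adjusted p = 0.456).

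Dazl (chr17:50279394-50293599, minus strand) encodes a germ-cell protein that recruits poly(A)-binding protein to its targets. It was at 73.5 and 61.0 RPKM at 10–30 µm, at 71.5 and 56.0 at 40–45 µm, at 67.3 and 57.0 at 50–55 µm and at 56.5 and 57.0 at 60–65 µm. Both libraries of the largest class were below both of the smallest, yet the ratio of 0.861 had an interval of 0.667 to 1.11 (limma, adjusted p = 0.266). Leaving out library B at 10–30 µm brought Cpeb1 and Lsm14b past the threshold in the first step, with log2 changes of 0.54 (limma, adjusted p = 0.0371) and 0.40 (adjusted p = 0.0464), and raised the count of risen members from 5 to 7.

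The cap- and tail-binding members both rose. EIF4E1B is a germ-line form of the cap-binding protein eIF4E that is linked to silent mRNA, and PABPC1L is the poly(A)-binding protein of oocytes and early embryos. Eif4e1b (chr13:54783998-54788459, plus strand) was at 25.8 and 30.1 RPKM at 10–30 µm, at 38.5 and 43.6 at 40–45 µm, at 41.3 and 43.6 at 50–55 µm and at 50.3 and 44.5 at 60–65 µm. All 6 libraries of the larger classes were above the smallest class. Its log2 change was 0.67 ± 0.11 (SE) in the first step (limma, adjusted p = 0.00421) and 0.78 ± 0.11 in all (adjusted p = 0.00035).

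Pabpc1l (chr2:164025450-164050538, plus strand) was at 11.0 and 13.9 RPKM at 10–30 µm, at 21.0 and 21.7 at 40–45 µm, at 24.5 and 26.2 at 50–55 µm and at 30.8 and 29.3 at 60–65 µm. As for Zar1l, the 4 classes were separate and in ascending order. The log2 change was 0.90 ± 0.11 (SE) in the first step (limma, adjusted p = 0.00153), 0.20 ± 0.11 in each of the next steps (adjusted p = 0.266 and 0.484) and 1.29 ± 0.11 in all (adjusted p = 3.1e-05).

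In the order of deposited RPKM, Zar1 and Lsm14b came first in every size class, although at 10–30 µm their libraries overlapped, and Dazl followed them up to 50–55 µm. With the length of the GENCODE exon union, an alternative chosen after seeing the data, Lsm14b was first and Zar1 second in all 4 classes, with Zar1 at 61.9 at 10–30 µm and 102 at 60–65 µm. The middle ranks were close. Ybx2 and Cpeb1 overlapped in every class, and at 60–65 µm so did Zar1l with Dazl, and Pabpc1l with Patl2. The span between the highest and the lowest class mean widened from 14.4-fold at 10–30 µm to 34.6-fold at 60–65 µm, with Zar1 higher and Ddx6 lower, and from 18.0- to 25.6-fold with the GENCODE lengths. Zar1 and Lsm14b were above at least 99.8% of all rows in every library, whereas Ddx6 was above 92.8 to 95.1% at 10–30 µm and 90.5 to 90.7% at 60–65 µm.

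GV oocytes gave 1 value a gene and no test. No member was 1.5-fold or more away from both 60–65 µm libraries, beside 1.51% of all genes higher and 1.14% lower. Zar1l was at 66.2 RPKM in GV oocytes and Pabpc1l at 31.8, and after scaling both were above every library of growing oocytes. Ddx6 was at 6.27 RPKM and below every library of growing oocytes, at 0.794 to 0.814 of its 60–65 µm libraries. Patl2 was at 22.0 RPKM, or 0.753 to 0.821 of the 60–65 µm libraries. The other members lay within the range of the growing oocytes, with Zar1 at 250 RPKM, Lsm14b at 143, Dazl at 56.4, Eif4e1b at 47.6, Cpeb1 at 33.5 and Ybx2 at 32.4.

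Members other than Ddx6, for which no relative was fixed, were set beside 1 relative each, chosen by name and not by protein identity. These ratios of deposited RPKM are descriptive and compare 8 fixed pairs. Pabpc1l exceeded Pabpc1, the poly(A)-binding protein of most cells, by 7.58- to 8.44-fold at 10–30 µm, 20.8- to 24.5-fold at 40–45 µm, 25.4- to 29.8-fold at 50–55 µm and 32.1- to 37.3-fold at 60–65 µm. Pabpc1 itself was at 1.46 and 1.65 RPKM in the smallest class and 0.961 and 0.784 in the largest, a log2 change of -0.75 ± 0.13 (SE; limma, adjusted p = 0.0013), so both genes of the pair moved. Pabpc1 has many near copies in the genome, and how the counting treated reads shared with them is not stated.

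Eif4e1b and Eif4e, the general cap-binding protein, were nearly level at 10–30 µm, where the ratio was 0.919 and 1.19 in the A and B libraries. At 60–65 µm Eif4e1b was 2.02- to 2.40-fold above Eif4e, which fell by 0.29 ± 0.10 (SE) on the log2 scale (limma, adjusted p = 0.0383). Between the zygote arrest genes the direction was the other way. Zar1 exceeded Zar1l by 8.36- to 10.1-fold at 10–30 µm, by 6.16- to 7.85-fold at 40–45 µm, by 5.36- to 6.13-fold at 50–55 µm, by 4.67- to 5.08-fold at 60–65 µm and by 3.77-fold in GV oocytes. With GENCODE lengths, Eif4e1b was 1.91- to 5.00-fold above Eif4e over all columns, so the near-level start rests on the length used, and Zar1 was 1.37- to 3.68-fold above Zar1l.

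Patl2 was 16.9- to 27.7-fold above Patl1, Lsm14b 8.16- to 14.5-fold above Lsm14a and Cpeb1 7.91- to 12.0-fold above Cpeb4 over the 9 columns. With GENCODE lengths Lsm14b was 16.1- to 28.7-fold above Lsm14a. Lsm14a, the form found in most cells, rose by 0.31 ± 0.11 (SE) on the log2 scale (limma, adjusted p = 0.033). Ybx2 was 1.82- to 2.80-fold above Ybx1, which stayed between 13.2 and 17.0 RPKM. Another Y-box gene, Csda, was above Ybx2 in all 9 columns, at 32.9 and 51.3 RPKM at 10–30 µm and 57.3 and 54.5 at 60–65 µm, and its log2 change of 0.46 ± 0.19 (SE) passed no threshold (limma, adjusted p = 0.0582). Pabpc4, a further poly(A)-binding protein, was above Pabpc1l at 10–30 µm (24.1 and 28.0 RPKM) and below it at 60–65 µm (17.5 and 19.8 RPKM). Both were named after their values were seen. Dazl was 276-fold or more above its relative Boll, which stayed under the 0.5 RPKM filter with 11 to 103 reads a library and was not tested.

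**Figure D3:**
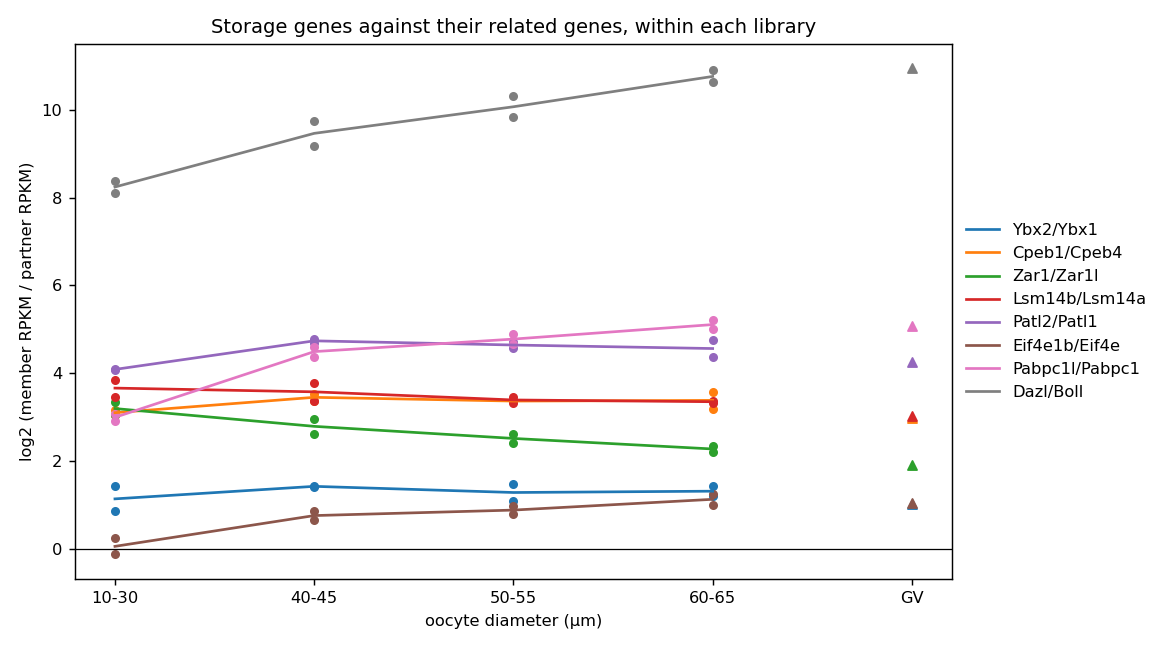
Log2 ratio of the RPKM of a storage gene to that of its relative (y axis) in each library, against oocyte diameter in µm and in GV oocytes (triangles). Lines join the means of 2 libraries. Pabpc1l/Pabpc1 climbs from 2.92 and 3.08 to 5.00 and 5.22, Zar1/Zar1l descends from 3.06 and 3.34 to 2.22 and 2.34, and Eif4e1b/Eif4e starts near 0.

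Other genes of mRNA storage and recall were taken from 4 fixed lists, and all counts compare 10–30 with 60–65 µm. Of 12 genes of cytoplasmic polyadenylation tested, 2 rose and 1 fell, with a median log2 change of -0.14, beside 32.3% of all genes higher, 30.8% lower and a median of 0.02. The risers were Fip1l1 (0.35 ± 0.11, SE; limma, adjusted p = 0.0257) and Wdr33 (0.35 ± 0.09, adjusted p = 0.0108), subunits of the cleavage and polyadenylation complex. Parn, a poly(A)-specific ribonuclease, fell by 0.27 ± 0.10 (adjusted p = 0.0485), a call that edgeR did not make (adjusted p = 0.0576). Without 1 library the counts were 0 to 2 in each direction, with no riser left without library B at 60–65 µm and no faller left without library B of either class.

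Of 15 tested relatives of the members and partners of the cap or tail, 3 rose and 5 fell, and the median was 0.09. The shares over all genes were 32.3% and 30.8%. Eif4e3, a further cap-binding protein, rose from 12.0 and 15.1 to 31.0 and 27.6 RPKM (limma, adjusted p = 6.2e-05). Pabpn1l, a poly(A)-binding protein of oocytes, rose from 28.2 and 33.5 to 62.3 and 62.1 RPKM (adjusted p = 0.00014). Eif4ebp1, a repressor of eIF4E, made the largest change of the list, from 7.32 and 7.70 to 1.06 and 1.36 RPKM, which is 5.75-fold lower (adjusted p = 4.5e-05). Eif4e2, a cap-binding protein with a part in repression, fell by 0.47 ± 0.11 (SE) on the log2 scale (adjusted p = 0.00527). Pabpc5 was at 0 in every library. Without library B at 10–30 µm 5 of the list rose, and without library A at 60–65 µm 3 fell.

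Of 25 other RNA-binding regulators of translation tested, 7 rose and 8 fell, with a median of -0.05, so that both shares were close to the 32.3% and 30.8% of all genes. Among the risers were Nanos2 (3.06-fold), Rbpms (1.96-fold) and Nanos1 (1.79-fold), of which the Nanos proteins act with Pumilio in repression. Among those that fell, Elavl1 and Stau2, which act in mRNA stability and transport, were 1.56- and 1.49-fold lower. Nanos3 was at 0 in every library. Without library B at 10–30 µm 11 rose and 5 fell, and 3 and 4 fell without library A and library B at 60–65 µm.

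Of 9 mRNAs studied as targets of CPEB1 or DAZL, 4 rose, 3 fell and 2 passed no threshold, against 32.3% of all genes higher and 30.8% lower. Ccnb1 (cyclin B1) rose 2.16-fold, Plat (tissue plasminogen activator) 1.90-fold, Mos (the kinase of meiotic arrest) 1.89-fold and Gdf9 (an oocyte growth factor) 1.30-fold (limma, adjusted p = 0.00016, 0.00039, 0.00034 and 0.0142). Sycp3 and Sycp1, of the synaptonemal complex of early meiosis, were 6.00- and 4.84-fold lower, and the germ-cell helicase Ddx4 1.57-fold lower (adjusted p = 2.7e-05, 0.00012 and 0.00066). Tpx2 and Tex19.1 had log2 changes of -0.11 ± 0.12 and 0.05 ± 0.11 (SE; adjusted p = 0.415 and 0.725).

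**Figure D4:**
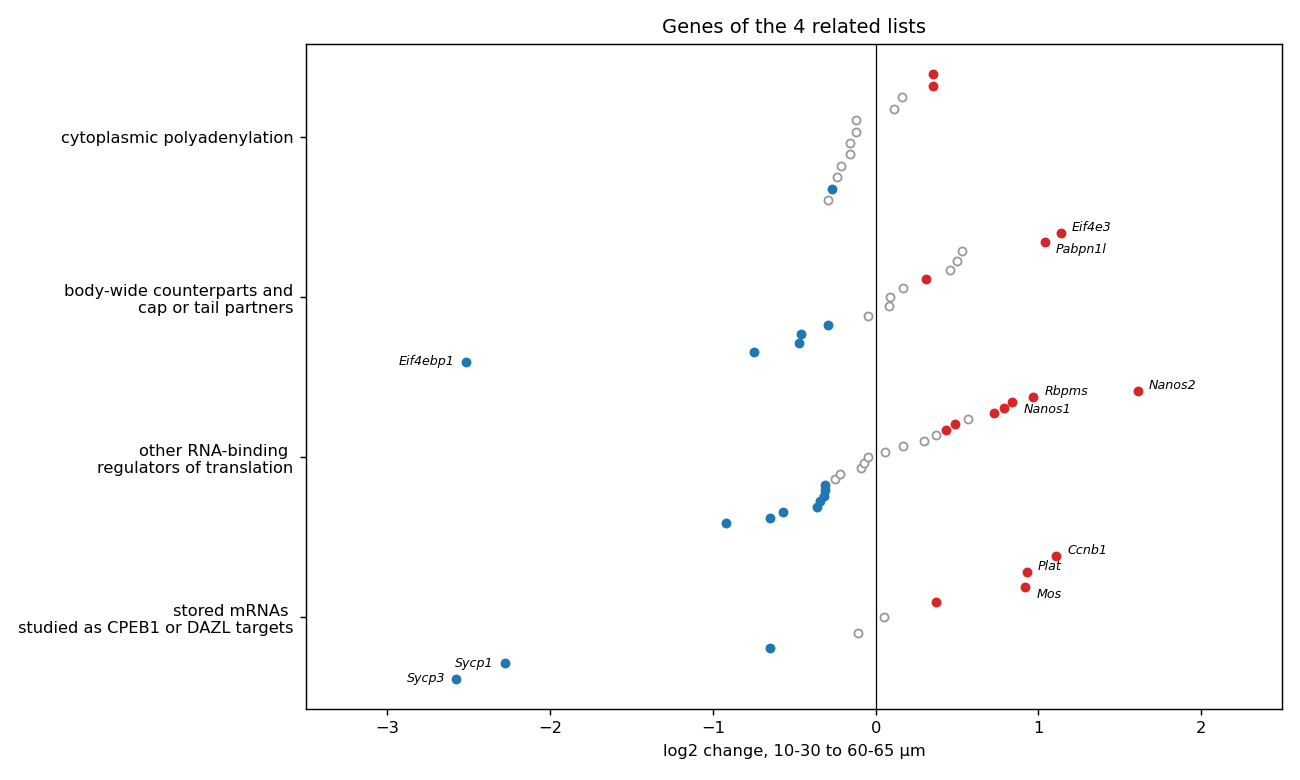
Log2 change from 10–30 to 60–65 µm (x axis) of the tested genes of 4 lists (rows), 1 point a gene, ordered by size within a list. Filled points passed an adjusted p of 0.05 in limma (red higher, blue lower) and open points did not. Sycp3 at -2.58, Eif4ebp1 at -2.52 and Sycp1 at -2.28 lie farthest to the left, and Nanos2 at 1.61 farthest to the right.

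DNA methylation of the starts was low. In the PBAT library at 60–65 µm, the mean over CpG cytosines with at least 5 reads within 1 kb of the start was under 10% for all 10 members, as for 85.8% of all genes. The lowest were Ddx6 at 0.852% (165 cytosines) and Cpeb1 at 1.67% (87), and the highest Zar1l at 6.42% (15) and Patl2 at 8.25% (27). The median of all 19669 genes measured was 3.87%. In the narrower promoter windows printed above, Patl2 had 15 methylated of 67 calls, or 22.4% (95% Wilson interval 14.1 to 33.7), whereas Zar1 had 2.26% and Pabpc1l 0 of 21 calls, which allows up to 15.5%. These windows pool all calls with no minimum of reads, and 5 of 20 cytosines of Patl2 and 0 of 12 of Pabpc1l had 5 calls. Intervals here cover counting error only.

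Gene bodies, taken from 1 kb past the start to the end, were more methylated than the 1 kb start windows in every member measured. The body mean of Patl2, 18.7%, was below the 22.4% of its narrower window, but the latter pools calls without a minimum of reads. Of the 8 members with at least 10 cytosines, 4 reached 25%, compared with 50.2% of all 18753 genes measured and with 81.8% of the 9291 that also passed the RPKM filter. Pabpc1l was highest at 40.2% (536 of 1289 calls, Wilson interval of the pooled calls 38.9 to 44.3%) and Ddx6 next at 37.2% (202 of 515, 35.1 to 43.5%). Eif4e1b stood at 26.6% (pooled interval 20.2 to 37.2%), Cpeb1 at 25.3% (24.7 to 28.7%) and Lsm14b at 24.6% (20.4 to 29.8%). Their intervals span 25%, so the count of 4 is not firm. Patl2 stood at 18.7% and Ybx2 at 17.2%. Zar1 was lowest at 8.72% (12 of 137 calls, interval 5.08 to 14.7%). Zar1l had 6 usable cytosines and Dazl none in the body. Counted over the whole annotated span, start included, 1 member reached 25% (Pabpc1l, 36.8%). With a minimum of 10 reads a cytosine, 4 members could be measured and all 4 reached 25%, with Patl2 at 34.0%, and with 1 read Eif4e1b stood at 16.8%.

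By RRBS, the starts of Ybx2, Cpeb1, Zar1, Lsm14b, Ddx6 and Dazl had at least 5 cytosines in all 6 libraries and stood between 0 and 3.92% in each of them. The start of Pabpc1l, with 7 and 5 cytosines, was at 4.25 and 0% at 40–45 µm and, with 7, at 10.6% in library A at 60–65 µm, where library B had too few. Fewer bodies could be followed, with a value in all 6 libraries for Cpeb1, Lsm14b, Ddx6 and Patl2. These values were not tested between classes. In the body of Ddx6, 9 to 11 cytosines went from 1.65 and 0% in the A and B libraries at 40–45 µm to 16.5 and 12.0% at 50–55 µm and 41.7 and 72.9% at 60–65 µm. In Lsm14b, 7 cytosines went from 1.14 and 0% to 6.28 and 4.12% and then 26.0 and 18.1%. The 3 classes were separate in both genes. Cpeb1, with 21 to 43 cytosines, went from 2.43 and 3.11% to 5.20 and 7.28% and 10.3 and 12.1%. Patl2 stayed between 0 and 3.26% at its 6 to 8 cytosines, whereas PBAT gave 18.7% over 184 cytosines at 60–65 µm. Its span also holds B2m and Trim69, so neither value is of Patl2 sequence alone. The body of Ybx2, with 5 to 9 cytosines, was at 0.741 and 16.7% at 40–45 µm and 4.55 and 17.1% at 50–55 µm. At 60–65 µm it was at 11.7% in library A, and its classes overlapped. That of Pabpc1l, also with 5 to 9, was at 1.75 and 4.06%, then 6.75% in library A, then 19.4 and 20.4%. The libraries left out here had under 5 cytosines. Over all genes measured, the median body was at 1.17 to 1.68% at 40–45 µm and 7.66 to 7.90% at 60–65 µm.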

How the data were processed

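Oocytes of wild-type C57BL/6 (C57BL/6Babr) mice were sorted by diameter, and 9 RNA-seq columns, 6 RRBS libraries and 1 PBAT library were used. For RNA-seq the authors trimmed paired reads from strand-specific libraries with Trim Galore 0.2.8, aligned them to GRCm38 with TopHat2 2.0.9 (option –g 1) and deposited RPKM values per gene, which they did not scale further. The paper names Cufflinks for transcript expression and SeqMonk among its tools for RNA-seq. Which program made the table, and whether its counting used strand, is not given in the sources used here. For methylation the authors trimmed with Trim Galore 0.3.5, aligned with Bismark 0.14.0 (RRBS) or 0.10.0 (PBAT, duplicates removed) and deposited, for each CpG cytosine, the percent methylated and the counts of methylated and unmethylated calls. No removal of duplicates is stated for RRBS.

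The members and lists were chosen with earlier results of these data known. Every member is named, with its fixed counterpart (none for Ddx6), every measured stored mRNA, and from each list and direction at most 3 genes of largest change with an adjusted p under 0.05 and libraries that did not overlap. The values of 1 gene that this rule names are not reported here. RPKM were scaled between libraries by a trimmed mean (factors 0.9452 to 1.057), a gene was kept when 2 or more of the 8 growing-oocyte libraries reached 0.5 RPKM, and limma 3.58.1 (R 4.3.3) was fitted to log2(RPKM + 0.1) with 1 mean per size class. Fold changes on this scale understate those of genes near the pseudocount. Genes were called at a Benjamini-Hochberg adjusted p under 0.05. The script was tested on simulated data. RPKM came in whole-read steps for 10512 of 10518 genes (99.9%, tolerance 0.05 read), and edgeR 4.0.16 on these reads was an alternative chosen after seeing the data. How mates and spliced reads entered the totals is not stated.

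Methylation of bodies and 1 kb starts was averaged over cytosines with at least 5 reads, whereas in the RefSeq promoter windows all calls were pooled with no minimum. A PBAT body needed 10 of them, and a start or an RRBS body 5. Promoter windows came from RefSeq, and their start lay 707 bases downstream of the table's start for Cpeb1, 226 upstream for Pabpc1l and within 103 for the others. Protein sequences and 2 promoters were not analysed here. PCR reads are not independent molecules, so Wilson intervals (scipy 1.17.1) cover counting error only.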

Additional observations from a re-analysis of the deposited data

How the results depend on the processing

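The 5 members that rose across growth passed the threshold in all 14 alternatives, and in the first step 4 of them did so in all 14 and Zar1 in 13. Ddx6 passed in 10 of 14. The count of members that fell across growth, 1 as reported, was 0 with no filter on low values and 0 to 1 when each library was left out. The letters A and B were not taken to pair the libraries, because their A to B differences correlated at 0.591 to 0.67 among the 3 smaller classes but at -0.225 to 0.113 with 60–65 µm. With the replicate block, 1 member rose from 40–45 to 50–55 µm (Zar1l, limma, adjusted p = 0.0368) where none was called without it, and 6 genes in place of 3 rose in the list of cap or tail partners. It changed no other call of a member. No member of the GV comparison passed 1.5-fold under any alternative.

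Of 560 recomputed log2 changes of members, 24 had the other sign, none of them called in either setting. From 10–30 to 40–45 µm, Dazl (0.03) was at -0.08 without further scaling and -0.01 with edgeR, and leaving out 1 library gave -0.16 to 0.23 for Dazl and -0.07 to 0.61 for Ybx2. From 40–45 to 50–55 µm, leaving out 1 library gave -0.53 to 0.05 for Ybx2, -0.13 to 0.02 for Cpeb1, -0.28 to 0.19 for Ddx6, -0.02 to 0.18 for Patl2, -0.07 to 0.07 for Eif4e1b and -0.27 to 0.12 for Dazl, and Ddx6 was at 0.00 without further scaling. From 50–55 to 60–65 µm the ranges were -0.21 to 0.38 for Ybx2, -0.25 to 0.09 for Cpeb1, -0.12 to 0.02 for Lsm14b and -0.47 to 0.00 for Ddx6. From 10–30 to 60–65 µm they were -0.22 to 0.46 for Ybx2, -0.09 to 0.41 for Cpeb1 and -0.18 to 0.17 for Lsm14b. The cause was not tested.

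The counts of the 4 lists were recomputed in settings chosen after seeing the data. In the polyadenylation list, 0 in place of 1 fell with edgeR, with median-of-ratios scaling, without the variance trend and with only the classes compared in the fit. Leaving out 1 library gave 0 to 2 risen and 0 to 2 fallen. Of cap or tail partners, 5 rose with median-of-ratios scaling and with only the classes compared, and leaving out 1 library gave 2 to 5 risen and 3 to 5 fallen. Of the other regulators, 4 in place of 8 fell with only the classes compared, and leaving out 1 library gave 5 to 11 risen and 3 to 8 fallen. The counts of stored mRNAs stayed within 1.5 times. For methylation, 1 member in place of 4 reached 25% over the whole annotated span, and 6 of 7 measured starts in place of 10 of 10 were under 10% in the window of 300 bases. Zar1l and Dazl had too few covered cytosines in their bodies in the PBAT library, and RRBS left the starts of Zar1l, Patl2 and Eif4e1b without 5 cytosines. With the length of the GENCODE exon union in place of that behind the RPKM, Zar1 moved from place 1 to 2 and Lsm14b from 2 to 1 in each class.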

Other observations

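In the 3 smaller size classes the members differed between the A and the B library in a repeated way. Ybx2, Cpeb1, Lsm14b, Ddx6, Patl2, Eif4e1b and Pabpc1l were lower in A than in B in all of 10–30, 40–45 and 50–55 µm, and Zar1l and Dazl were higher in A in all of them, so that 9 of the 10 members kept to 1 side, as did 59.9% of the 10518 genes tested. For Ybx2 the log2 difference of A from B was -0.68, -0.30 and -0.58 in these classes and 0.06 at 60–65 µm. For Dazl it was 0.32, 0.39 and 0.23, and -0.05 at 60–65 µm. At 60–65 µm, 4 of the 10 members were lower in A. Over all genes tested the difference of A from B had an SD of 0.30 at 10–30 µm and 0.178 at 60–65 µm. What the letters A and B stand for was not given in the labels.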
